A study of Homo sapiens with 12 samples.

Results

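The subject is a group of 10 genes of the DNA synthesis machinery: the polymerase alpha and primase genes POLA1, POLA2, PRIM1 and PRIM2, the polymerase delta genes POLD1 and POLD3, the polymerase epsilon genes POLE and POLE2, the sliding clamp gene PCNA and the flap endonuclease gene FEN1. They form a named list of subunits and partners, drawn up with earlier results of these data known. All 10 were measured, each by 1 probe set with a single gene symbol, among 18417 genes measured on the arrays. RNA came from SK-mel147, an established human melanoma cell line, infected with lentiviruses that express short hairpin RNAs, and was hybridised to 12 arrays. Sample titles call the reagents siRNA, whereas the treatment protocol describes lentiviral short hairpin RNA, and the protocol was followed here. The 6 hairpins had 2 arrays each: sh_37 and sh_38 against H2AZ2, sh_83 and sh_84 against H2AZ1, and the control hairpins scrambled and luciferase, which target neither gene. H2AZ1 and H2AZ2 encode H2A.Z.1 and H2A.Z.2, closely related isoforms of a histone variant that takes the place of H2A in part of the nucleosomes. The 2 labels of the second sh_84 array disagree on the hairpin, and its title decided the group. Nothing states that the arrays of a hairpin are separate cultures or infections: the spread behind each p-value is that of these arrays and may be technical. All cells, controls included, carry a hairpin virus, and the data come from a single cell line.

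Copying of nuclear DNA begins when primase, joined to polymerase alpha, lays down a short RNA primer and extends it with DNA. Polymerase epsilon then carries most synthesis of the leading strand and polymerase delta that of the lagging strand. Both work with PCNA, a ring that slides along DNA behind the polymerase, and FEN1 trims the flaps left where Okazaki fragments meet. Many genes of this machinery are transcribed mainly in late G1 and S phase under E2F transcription factors, so in a cell population their mRNA level also depends on how many cells are cycling. In such bulk RNA, fewer cells in S phase and less of the transcript per cell cannot be told apart.

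The promoter sequences are shown first because E2F control is the best known shared feature of these genes and was not used to choose them. RefSeq start sites (GRCh38.p14) gave windows of 250 bases before and 50 bases from the start for 9 of the 10 genes. An E2F-type motif, any of TTTCCCGC, TTTCGCGC, TTTGCCGC and TTTGGCGC on either strand, lay in a window of 5 of these 9 genes. Of all 27305 genes with a window 3.99% held it, and of all 35116 windows 3.31%. These genes include ones outside the 18417 measured, and they were not matched to the 9 genes in base composition or level. A CCAAT box (CCAAT or, on the opposite strand, ATTGG) lay in a window of 4 of the 9 genes, against 39.7% of all genes with a window; no CCAAT box overlapped an E2F-type motif in the windows of these 9 genes. The 5 windows with the motif are printed 5′ to 3′ in the direction of the gene, with the E2F-type match in capitals.
POLA1 (chrX:24693668-24693967, plus strand): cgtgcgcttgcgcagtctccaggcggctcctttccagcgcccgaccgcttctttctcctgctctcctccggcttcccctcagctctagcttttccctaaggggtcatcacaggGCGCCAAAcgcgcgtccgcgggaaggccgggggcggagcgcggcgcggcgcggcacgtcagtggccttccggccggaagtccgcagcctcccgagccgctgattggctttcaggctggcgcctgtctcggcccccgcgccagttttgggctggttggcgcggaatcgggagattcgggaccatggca
POLA2 (chr11:65261712-65262011, plus strand): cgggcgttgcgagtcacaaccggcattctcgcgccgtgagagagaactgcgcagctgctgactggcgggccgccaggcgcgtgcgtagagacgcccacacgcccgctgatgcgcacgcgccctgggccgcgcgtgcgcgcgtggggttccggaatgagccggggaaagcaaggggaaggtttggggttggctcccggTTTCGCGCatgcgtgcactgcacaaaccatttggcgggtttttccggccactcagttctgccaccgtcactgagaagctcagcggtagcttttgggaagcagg
POLE (chr12:132687293-132687592, minus strand): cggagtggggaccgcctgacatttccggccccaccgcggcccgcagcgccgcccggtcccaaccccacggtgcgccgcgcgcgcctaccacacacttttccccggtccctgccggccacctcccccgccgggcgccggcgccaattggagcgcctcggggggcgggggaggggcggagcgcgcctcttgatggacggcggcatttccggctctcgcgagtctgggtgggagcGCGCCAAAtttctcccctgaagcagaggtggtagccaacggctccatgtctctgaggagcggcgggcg
POLE2 (chr14:49688165-49688464, minus strand): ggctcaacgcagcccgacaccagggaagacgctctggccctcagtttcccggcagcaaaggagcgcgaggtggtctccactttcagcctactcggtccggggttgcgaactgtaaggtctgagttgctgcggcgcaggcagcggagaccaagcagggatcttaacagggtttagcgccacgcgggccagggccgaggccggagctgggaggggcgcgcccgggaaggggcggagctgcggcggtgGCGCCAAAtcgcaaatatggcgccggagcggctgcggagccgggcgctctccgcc
PCNA (chr20:5126573-5126872, minus strand): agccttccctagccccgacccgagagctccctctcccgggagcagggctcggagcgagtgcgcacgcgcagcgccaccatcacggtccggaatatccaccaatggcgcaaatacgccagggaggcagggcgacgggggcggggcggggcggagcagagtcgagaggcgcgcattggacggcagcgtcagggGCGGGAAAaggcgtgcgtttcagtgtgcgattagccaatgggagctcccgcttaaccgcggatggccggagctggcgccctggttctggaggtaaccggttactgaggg

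The match began 137 bases before the start in POLA1, 53 in POLA2, 18 in POLE, 5 in POLE2 and 59 in PCNA. POLA1, POLE and POLE2 held the same letters, GCGCCAAA, the reverse complement of TTTGGCGC. PCNA held GCGGGAAA, the reverse complement of TTTCCCGC, and POLA2 TTTCGCGC. The windows of PRIM1, PRIM2, POLD1 and FEN1 held no match to these letters, nor did a second window of PCNA, which says nothing about binding of a factor there. Such a match is a description of the sequence and no measured site.

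The targeted transcripts set the frame for each hairpin. All levels are log2 expression values from RMA, and differences are log2 differences. H2AZ2 had 9.94 and 9.83 with sh_37 and 10.43 and 10.35 with sh_38, against 10.94, 10.99, 11.03 and 11.05 in the controls. It was therefore lower in each of the 4 arrays with H2AZ2 hairpins, more so with sh_37. H2AZ1 had 9.79 and 9.94 with sh_83 but 12.10 and 12.15 in the arrays labelled sh_84, against 12.12 to 12.38 in the controls, so sh_83 carried the measured knockdown of H2AZ1. With the H2AZ2 hairpins H2AZ1 was slightly lower too, at 11.97 and 12.09 (sh_37) and 12.11 and 12.09 (sh_38). These 4 arrays lay below the controls (mean 12.06 against 12.24), as they did for 7.46% of all genes. Array medians lay between 7.0 and 7.1, and pairs of arrays correlated at 0.982 to 0.998 across genes, which are not independent replicates. As for the cell type, SOX10 of the melanocytic lineage (median 10.46) was at the 90.2 percentile of genes by mean level. The receptor genes AXL (12.49) and NGFR (11.37) were above it. The pigment genes PMEL, MLANA, TYR and TYRP1 lay at or below the 16.7 percentile, so the pigment markers were dim. Of the other measured melanocyte and melanoma markers, SOX9 lay at the 74.1 percentile, MITF at 59.5, S100A1 at 20.2 and S100B at 12.3.

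After H2AZ2 knockdown 6 of the 10 genes, a list that is not independent of these data, fell and none rose, and the other 4 had adjusted p between 0.0519 and 0.0672. The test compared 4 arrays with H2AZ2 hairpins and 4 with control hairpins in a limma fit to all 12 arrays, with the hairpin as a random block and adjustment over all 18417 genes at 0.05. Genes called lower made up 2.44% of all genes and genes called higher 0.863%. The 10 log2 differences ran from -0.93 for POLE2 to -0.36 for PCNA with a median of -0.46, beside a median of 0.03 over all genes. For each of the 10 genes the 4 H2AZ2 arrays lay wholly below the 4 controls, as they did for 7.46% of all genes.

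Of the alpha and primase genes, POLA2 and PRIM1 fell. POLA2, the regulatory subunit of polymerase alpha, had 8.68 and 8.67 with sh_37 and 8.67 and 8.74 with sh_38, against 9.31 and 9.11 with scrambled and 9.02 and 9.20 with luciferase. The H2AZ2 arrays were tight and the difference of -0.47 (SE 0.10, limma adjusted p = 0.0206) was larger than the spread in either group. PRIM1, the catalytic subunit of primase, had 8.73 and 8.76 with sh_37 and 9.01 and 8.72 with sh_38, against 9.25 and 9.36 with scrambled and 9.27 and 9.51 with luciferase. Its difference was -0.54 (SE 0.14, limma adjusted p = 0.0455), with replicate 1 of sh_38 the highest of the H2AZ2 arrays.

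POLA1, the catalytic subunit that extends the RNA primer, had 8.21 and 8.12 with sh_37 and 8.37 and 8.04 with sh_38, against 8.84 and 8.61 with scrambled and 8.48 and 8.65 with luciferase. Its log2 difference of -0.46 (SE 0.12, 95% interval -0.71 to -0.20) had a limma adjusted p of 0.0519. The nearest arrays of the groups, replicate 1 of sh_38 and replicate 1 of luciferase, were 8.37 and 8.48. PRIM2, the large regulatory subunit of primase, had 8.37 and 8.28 with sh_37 and 8.25 and 7.96 with sh_38, against 8.66 and 8.50 with scrambled and 8.53 and 8.83 with luciferase. Its log2 difference was -0.41 (SE 0.12, 95% interval -0.66 to -0.17, limma adjusted p = 0.0672). PRIM2 was lowest with sh_38, whose arrays both lay below those of sh_37.

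Both polymerase delta genes in the group fell. POLD1, the catalytic and proofreading subunit, had 8.76 and 8.72 with sh_37 and 8.80 and 8.72 with sh_38, against 9.22 and 9.21 with scrambled and 9.15 and 9.19 with luciferase. Arrays of each group lay close together (SD 0.04 with H2AZ2 hairpins and 0.03 in the controls, n = 4 each), and the log2 difference was -0.44 (SE 0.08, limma adjusted p = 0.0110). POLD3, the subunit that links the polymerase to PCNA, had 9.06 and 9.22 with sh_37 and 9.16 and 8.98 with sh_38, against 9.61 and 9.67 with scrambled and 9.51 and 9.63 with luciferase. Its difference was -0.50 (SE 0.10, limma adjusted p = 0.0149), and the H2AZ2 levels were 70.6% of the control level.

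POLE2, the regulatory B subunit of polymerase epsilon, changed more than any other of the 10 genes. It had 8.14 and 8.10 with sh_37 and 8.31 and 7.87 with sh_38, against 9.09 and 8.85 with scrambled and 8.99 and 9.22 with luciferase. The groups were far apart: the level was 52.5% of control (log2 difference -0.93, SE 0.13, limma adjusted p = 0.00482), which ranked 25 from the lowest change among all genes. POLE, the catalytic subunit, had 8.92 and 9.02 with sh_37 and 9.01 and 8.89 with sh_38, against 9.72 and 9.40 with scrambled and 9.17 and 9.52 with luciferase. The H2AZ2 arrays were close together (SD 0.06, n = 4) and the controls more spread (SD 0.23, n = 4); the log2 difference was -0.49 (SE 0.13, 95% interval -0.77 to -0.22, limma adjusted p = 0.0542).

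The clamp and the flap endonuclease had the smallest differences of the group. PCNA had 10.12 and 10.20 with sh_37 and 10.52 and 10.39 with sh_38, against 10.60 and 10.67 with scrambled and 10.66 and 10.74 with luciferase. The sh_38 arrays came close to the controls, and the log2 difference was -0.36 (SE 0.09, 95% interval -0.56 to -0.16, limma adjusted p = 0.0535). FEN1 had 10.25 and 10.38 with sh_37 and 10.58 and 10.48 with sh_38, against 10.74 and 10.93 with scrambled and 10.79 and 10.74 with luciferase. It fell by 0.37 on the log2 scale, to 77.1% of control (SE 0.09, limma adjusted p = 0.0347), with the same order of hairpins as PCNA.

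**Figure D1:**
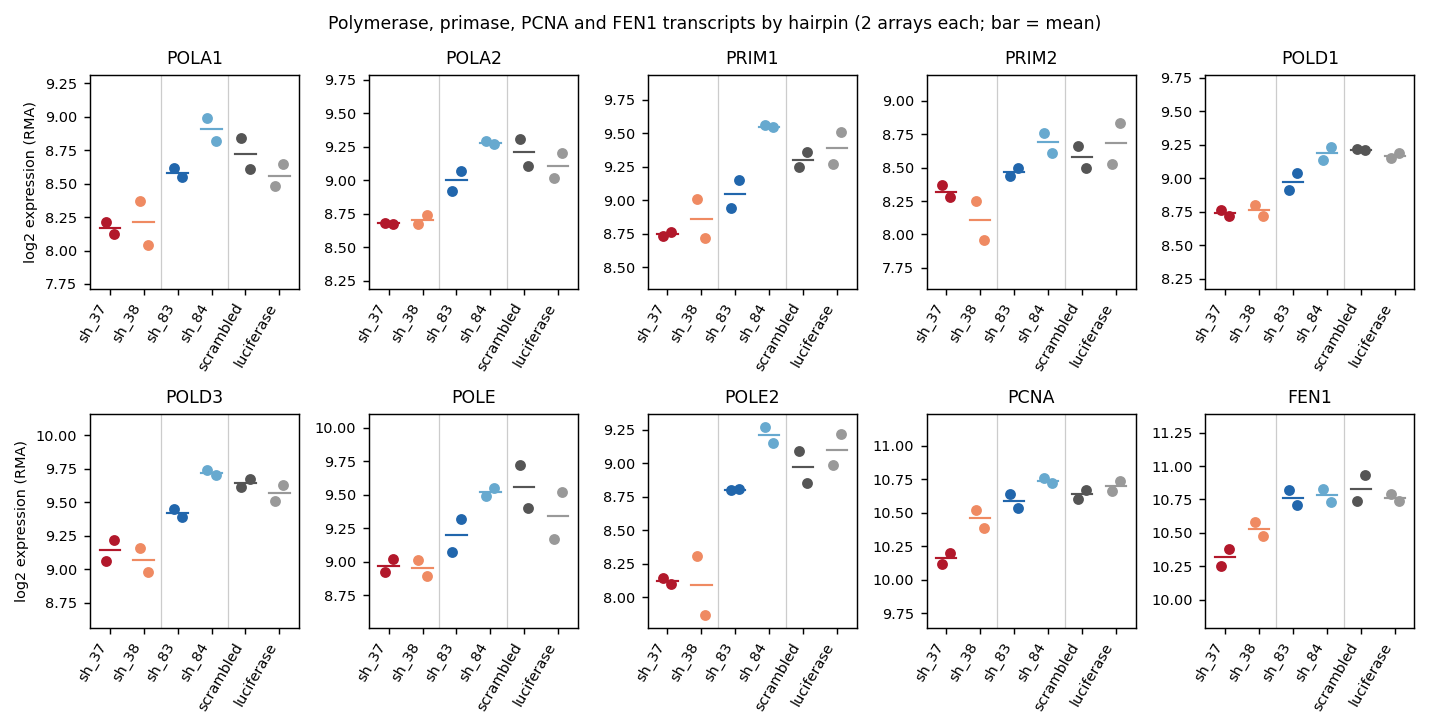
Log2 expression (vertical axis, each panel spanning the same range) of the 10 genes in the 2 arrays of each hairpin (points) with their mean (bar), for H2AZ2 hairpins (sh_37, sh_38), H2AZ1 hairpins (sh_83, sh_84) and controls (scrambled, luciferase). In each panel the 4 H2AZ2 arrays lie below the 4 control arrays; for PCNA and FEN1 the sh_37 arrays are lower than the sh_38 arrays.

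The number of calls depended on single arrays and on the treatment of hairpins. It was 1 without replicate 1 of scrambled and 3 without replicate 2 of luciferase, and it was 1 without hairpin scrambled, 0 without luciferase and 3 without sh_37. It was 10 with no hairpin block and 0 when the mean of a hairpin was taken as 1 sample, while the median of the 10 differences stayed between -0.51 and -0.41. Calls over all genes moved too: 609 in the main fit, 66 to 847 without a single array and 14 without hairpin luciferase. With the mean of a hairpin as 1 sample 0 of all genes were called. A count of 0 there is therefore not particular to the 10 genes.

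Taken hairpin by hairpin, 9 of the 10 genes fell with sh_37 and 7 with sh_38 against the 4 control arrays, and 6 fell with both: POLA2, PRIM1, POLD1, POLD3, POLE and POLE2. Each of the 10 passed with at least 1 of the hairpins. Here limma was fitted to 6 groups, 1 per hairpin. Of all genes 7.19% were called lower with sh_37, 3.33% with sh_38 and 1.76% with both; both comparisons use the same control arrays. The medians were -0.48 with sh_37 and -0.47 with sh_38, beside medians over all genes of 0.01 and 0.03.

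POLE2 fell to 53.1% of control with sh_37 (log2 difference -0.91, SE 0.13, limma adjusted p = 0.000862). With sh_38 it fell to 51.9% (log2 difference -0.95, SE 0.13, limma adjusted p = 0.00253). POLD1 was likewise close in the 2 hairpins, at -0.45 and -0.44 (SE 0.07 each), as was POLE at -0.48 and -0.50 (SE 0.12 each). PCNA passed with sh_37, where it changed by -0.51 (SE 0.08, limma adjusted p = 0.00156), and had -0.21 with sh_38 (SE 0.08, adjusted p = 0.157 in limma). FEN1 was at -0.48 (SE 0.09, limma adjusted p = 0.00405) and -0.27 (SE 0.09, limma adjusted p = 0.113). PRIM2 had the other order: sh_37 gave -0.31 (SE 0.11, adjusted p = 0.113 in limma) and sh_38 -0.52 (SE 0.11, limma adjusted p = 0.0252). POLA1 stood at -0.48 and -0.44 (SE 0.11 each), with limma adjusted p of 0.0167 and 0.0547.

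Tested directly, none of the 10 genes differed between sh_37 and sh_38 at the threshold, where 2.20% of all genes were called lower and 4.07% higher. PCNA came nearest, at -0.29 for sh_37 minus sh_38 (SE 0.09, 95% interval -0.49 to -0.10, limma adjusted p = 0.0870), followed by FEN1 at -0.21 (SE 0.10, 95% interval -0.43 to 0.01, limma adjusted p = 0.302) and PRIM2 at 0.22 (SE 0.13, 95% interval -0.07 to 0.51, limma adjusted p = 0.452). For POLE2 the difference was 0.03 with an interval of -0.29 to 0.35, which bounds how far the hairpins could differ for that gene. H2AZ2 itself was lower with sh_37 than with sh_38 (-0.50, SE 0.09, limma adjusted p = 0.00763). The count with sh_37 was 3 without its replicate 1, and the count with sh_38 was 1 without its replicate 2 and 3 without replicate 2 of luciferase. Over all genes, leaving out single arrays gave 922 to 2510 calls for sh_37 and 148 to 1431 for sh_38.

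**Figure D2:**
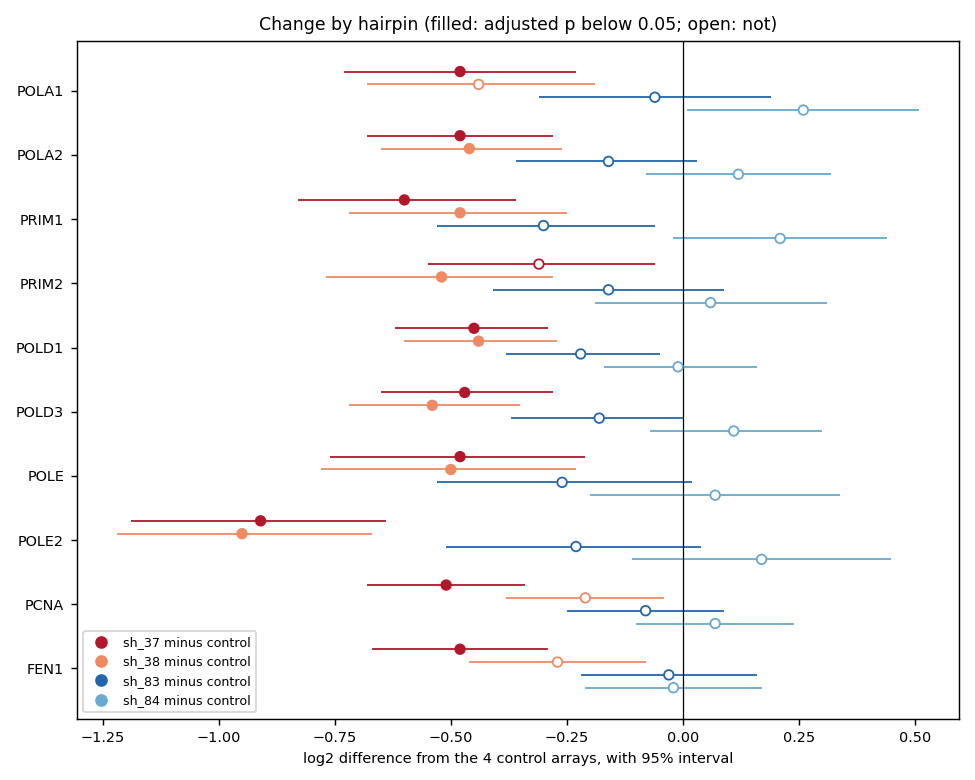
Log2 difference of each gene from the 4 control arrays (horizontal axis) with its 95% interval, for sh_37, sh_38, sh_83 and sh_84 from top to bottom within each gene; filled points passed the limma test at an adjusted p of 0.05. The H2AZ2 hairpins lie left of 0 for the 10 genes, with POLE2 farthest at -0.91 and -0.95, and no point of sh_83 or sh_84 is filled.

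H2AZ1 knockdown gave no call among the 10 genes. Over both H2AZ1 hairpins their log2 differences from control ran from -0.11 (POLD1) to 0.10 (POLA1), with a median of -0.03, and limma called 0 of the 10 and 0% of all genes; 3.45% of all genes had an unadjusted p under 0.05. These 4 arrays include those labelled sh_84, where H2AZ1 stood near the control level. With sh_83 alone the 10 differences lay between -0.30 (PRIM1) and -0.03 (FEN1), with a median of -0.17 and none called, where 0.489% of all genes were called lower. PRIM1 had 8.94 and 9.15 with sh_83, against 9.25 to 9.51 in the controls, at -0.30 (SE 0.11, 95% interval -0.53 to -0.06, limma adjusted p = 0.329). POLD1 had 8.91 and 9.04, against 9.15 to 9.22, at -0.22 (SE 0.07, 95% interval -0.38 to -0.05, limma adjusted p = 0.299). POLE2 had 8.80 and 8.81, against 8.85 to 9.22, at -0.23 (SE 0.13, 95% interval -0.51 to 0.04, limma adjusted p = 0.583). For 4 of the 10 genes, PRIM1, POLD1, POLD3 and POLE2, both sh_83 arrays lay below the controls, as they did for 10.9% of all genes.

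In the arrays labelled sh_84 the 10 differences lay between -0.02 (FEN1) and 0.26 (POLA1), with a median of 0.09 and none called, where 0.342% of all genes were called lower and 0.0109% higher. POLA1 had 8.99 and 8.82 there, against 8.48 to 8.84 in the controls. PRIM1 had 9.56 and 9.55, above the highest control array at 9.51; it and POLD3 were above all controls, as were 4.76% of all genes. A direct comparison of sh_83 with sh_84, added after the values were seen, needs no controls. It put 9 of the 10 genes lower in both sh_83 arrays than in both sh_84 arrays, with FEN1 the exception, against 22.7% of all genes, and limma called none of the 10 (0.472% of all genes were called lower). PRIM1 came nearest at -0.51 (SE 0.12, 95% interval -0.78 to -0.24, limma adjusted p = 0.0848), with POLE2 at -0.41 (SE 0.14, limma adjusted p = 0.269).

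Set against the H2AZ1 arrays, 7 of the 10 genes were lower with H2AZ2 hairpins (limma with the hairpin block), where 2.28% of all genes were called lower. These were POLE2 (-0.90, SE 0.13, limma adjusted p = 0.00407), POLD3 (-0.47, SE 0.10, limma adjusted p = 0.0171), POLA1 (-0.56, SE 0.12, limma adjusted p = 0.0195), POLA2 (-0.45), POLD1 (-0.33), FEN1 (-0.35) and PCNA (-0.35, limma adjusted p = 0.0493). PRIM1 (-0.50, limma adjusted p = 0.0549), PRIM2 (-0.36, limma adjusted p = 0.0944) and POLE (-0.40, limma adjusted p = 0.105) did not pass. The 4 H2AZ2 arrays lay below the 4 H2AZ1 arrays for 9 of the 10 genes, PRIM1 being the exception, against 6.84% of all genes. The count was 0 without hairpin sh_84, and it was 1 without either of its replicates. It was 2 without replicate 1 of scrambled and without hairpin sh_37, and 4 without either replicate of sh_37, replicate 2 of sh_38 or of sh_83, replicate 1 of luciferase, or either control hairpin. Over all genes this comparison called 802 in the main fit, and 93 to 1795 when single arrays or hairpins were left out.

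Against sh_83 alone, the hairpin that lowered H2AZ1, 2 of the 10 genes passed in the fit by hairpin: POLE2 at -0.70 (SE 0.13, limma adjusted p = 0.00978) and FEN1 at -0.34 (SE 0.09, limma adjusted p = 0.0463), where 2.38% of all genes were called lower. The other differences ran from -0.40 (POLA1, limma adjusted p = 0.0720) to -0.23 (POLD1, limma adjusted p = 0.127). The H2AZ2 arrays lay below both sh_83 arrays for 9 of the 10 genes, again all but PRIM1, against 11.1% of all genes. The count of 2 was 0 without either replicate of sh_83, and it was 1 without either replicate of sh_37, sh_84 or luciferase or without replicate 2 of sh_38. Over all genes, leaving out single arrays gave 150 to 1071 calls in this comparison, with 964 in the main fit. Between the control hairpins, scrambled minus luciferase, the 10 differences ran from -0.14 (POLE2) to 0.22 (POLE) and limma called none of the 10 and 0% of all genes, with 7.51% at an unadjusted p under 0.05.

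The polymerases have further subunits that were measured but are not among the 10 genes. POLD2, the B subunit of polymerase delta, had 10.81 and 10.74 with sh_37 and 10.99 and 10.89 with sh_38, against 10.95, 10.96, 10.98 and 11.08 in the controls. The groups overlapped, and the log2 difference was -0.14 (SE 0.08, 95% interval -0.31 to 0.03, limma adjusted p = 0.411). POLD4, the smallest delta subunit, stood at 0.10 (SE 0.11, limma adjusted p = 0.674), and POLE4, a histone-fold subunit of polymerase epsilon, also at 0.10 (SE 0.09, limma adjusted p = 0.608). POLE3, the histone-fold partner of POLE4, stood at -0.17 over both hairpins (SE 0.11, limma adjusted p = 0.466). It had 9.79 and 10.00 with sh_37 and 10.29 and 10.28 with sh_38, against 10.20 to 10.35 in the controls, and passed with sh_37 alone (-0.36, SE 0.10, limma adjusted p = 0.0327). Over these 4 subunits limma called none after H2AZ2 knockdown, with a median of -0.02. Beside 2.44% of all genes called lower, no call among 4 genes says little of them. The list of 10 that leaves them out was drawn up with earlier results of these data known.

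Whether subunits of 1 complex changed by unequal amounts was tested on their log2 ratio in each array, by a two-sided exact permutation of 4 H2AZ2 against 4 control arrays, over the 18 pairs within the 3 complexes (chosen after the values were seen). The smallest p the design allows is 0.0286, and 9 of the 18 pairs reached it, with ratios that did not overlap between groups, as in 11.7% of all pairs of measured genes. Adjusted over the 18 pairs their p was 0.0572, so none passed. The permutation treats the 4 arrays of a group as exchangeable although they are 2 arrays from each of 2 hairpins, and with hairpins as the units the smallest exact p would be 0.333. The 18 pairs also share genes. Most of the 9 pairs set a gene of the list against POLD2, POLD4, POLE3 or POLE4, which the list leaves out. That list was drawn up with earlier results of these data known. An unequal change between listed and unlisted subunits is therefore no independent evidence. The ratio of POLE2 to POLE4 changed by -1.03 (n = 4 each, exact permutation p = 0.0286), of POLE2 to POLE3 by -0.76 and of POLE to POLE2 by 0.44. In polymerase delta the ratio of POLD1 to POLD2 changed by -0.31, of POLD1 to POLD4 by -0.54 and of POLD3 to POLD4 by -0.60. POLD1 to POLD3 changed by 0.06 (exact permutation p = 0.371, n = 4 each). In the alpha and primase complex no pair of the 6 separated the groups, and ratios changed by -0.13 to 0.08.

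**Figure D3:**
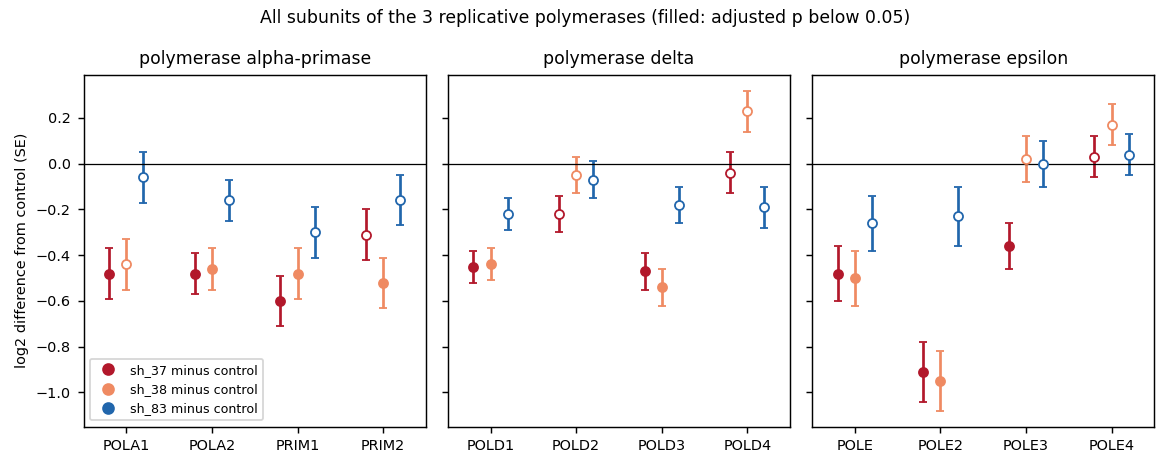
Log2 difference from the 4 control arrays (vertical axis, bars SE) of the 12 subunits of the polymerase alpha and primase, delta and epsilon complexes with sh_37, sh_38 and sh_83; filled points passed the limma test at an adjusted p of 0.05. POLD2, POLD4, POLE3 and POLE4 lie nearer to 0 with the H2AZ2 hairpins than the other delta and epsilon subunits, with POLE3 called for sh_37 only.

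Partners at the fork gave the setting for these values, from lists drawn up with earlier results of these data known. Of 11 genes of the CMG helicase, which unwinds DNA ahead of the polymerases, 11 fell after H2AZ2 knockdown (median -0.53), among them MCM6 (-0.73) and GINS1 (-0.64). Of 10 clamp loader and clamp regulator genes 5 fell (median -0.45). ATAD5, which unloads PCNA, stood at -0.88 (SE 0.15, limma adjusted p = 0.00957) and RFC3, a clamp loader subunit, at -0.62 (SE 0.13, limma adjusted p = 0.0189). Of 9 genes for Okazaki fragment maturation and fork coupling 4 fell (median -0.42), including the nuclease and helicase gene DNA2 (-0.70, limma adjusted p = 0.0455) and WDHD1, which ties polymerase alpha to the helicase (-0.58, limma adjusted p = 0.0211). These counts stand beside 2.44% of all genes called lower, and the medians beside 0.03 over all genes.

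Of 15 genes for DNA polymerases of repair, translesion synthesis and mitochondria 1 fell, with a median of -0.06; a count this small cannot be told from the 2.44% of all genes called lower. This was POLQ, the polymerase of end joining at microhomologies (-0.61, SE 0.11, limma adjusted p = 0.0143). It stood at -0.69 with sh_37 and -0.52 with sh_38. PRIMPOL, which reprimes stalled forks, stood at -0.44 with a wide error (SE 0.21, limma adjusted p = 0.305). Of 11 RNA polymerase II subunit genes none passed (median -0.05), which at the same share of all genes says little of the list, with POLR2A at -0.34 (SE 0.13, limma adjusted p = 0.182) and POLR2D at -0.28 (SE 0.13, limma adjusted p = 0.265). In the fit by hairpin 1 of the 11 fell with each H2AZ2 hairpin: POLR2D with sh_37 (-0.53, limma adjusted p = 0.0039) and POLR2A with sh_38 (-0.60, limma adjusted p = 0.00555).

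Transcripts of mitosis moved with the same arrays. Of 14 mitotic genes 6 fell after H2AZ2 knockdown (median -0.41, beside 2.44% of all genes called lower), among them CDK1, the kinase of mitotic entry (-0.72, SE 0.12, limma adjusted p = 0.00722), and KIF11, a spindle motor (-0.58, SE 0.13, limma adjusted p = 0.0246). In the fit by hairpin 13 of the 14 fell with sh_37 (median -0.47) and 4 with sh_38 (median -0.30), beside 9 and 7 of the 10 polymerase, clamp and nuclease genes and 7.19% and 3.33% of all genes. Over both H2AZ1 hairpins none of the 14 passed (median 0.03), and with sh_83, the hairpin that lowered H2AZ1, 1 fell (median -0.05, beside 0.489% of all genes called lower). This was TPX2, a spindle assembly factor, at -0.44 with sh_83 (SE 0.08, limma adjusted p = 0.0394), named after its values were seen. The share of cycling cells was not measured here, and its part in the lower polymerase transcripts was not tested. Of 6 fibroblast markers 0 were called after H2AZ2 knockdown; their mean level was 6.68 to 6.98 in the H2AZ2 arrays, against 6.42 to 6.61 in the controls, with LUM at 0.82 (limma adjusted p = 0.182) and COL1A1 at 0.50 (limma adjusted p = 0.0561). In the fit by hairpin LUM and COL1A1 rose with sh_37 (1.27 and 0.69) and LUM with sh_38 (0.38). The melanoma gene AXL (-0.32) and the leukocyte gene LYZ (-0.82) fell with sh_37. The melanoma gene SOX10 (-0.30) lay at the threshold there (limma adjusted p = 0.05). With sh_83, SOX10 stood at -0.33, LYZ at -0.38 and AXL at -0.15, with limma adjusted p of 0.16, 0.409 and 0.583. In the arrays labelled sh_84 these genes stood at -0.17, -0.29 and -0.01, none of them called. LUM also fell by 0.85 in the arrays labelled sh_84 (limma adjusted p = 0.00396), and it stood at -0.76 for scrambled minus luciferase (limma adjusted p = 0.287), a larger gap than its rise with sh_38. The part of these transcripts in the result was not tested. Other marker means overlapped between these groups. The mean of 11 melanocyte and melanoma genes was 7.54 to 7.70 with H2AZ2 hairpins against 7.59 to 7.65 in the controls, 4 keratinocyte genes had 6.39 to 6.75 against 6.29 to 6.78, 4 endothelial genes 5.97 to 6.17 against 5.80 to 6.07, and 4 leukocyte genes 5.37 to 5.71 against 5.47 to 5.72. By mean level the fibroblast genes ran from the 1.0 percentile of genes (DCN, median 3.57) to the 70.9 percentile (LUM, median 9.10), with COL1A1 at 54.8, and the leukocyte genes from 2.9 (PTPRC, median 4.10) to 33.0 (CD14).

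**Figure D4:**
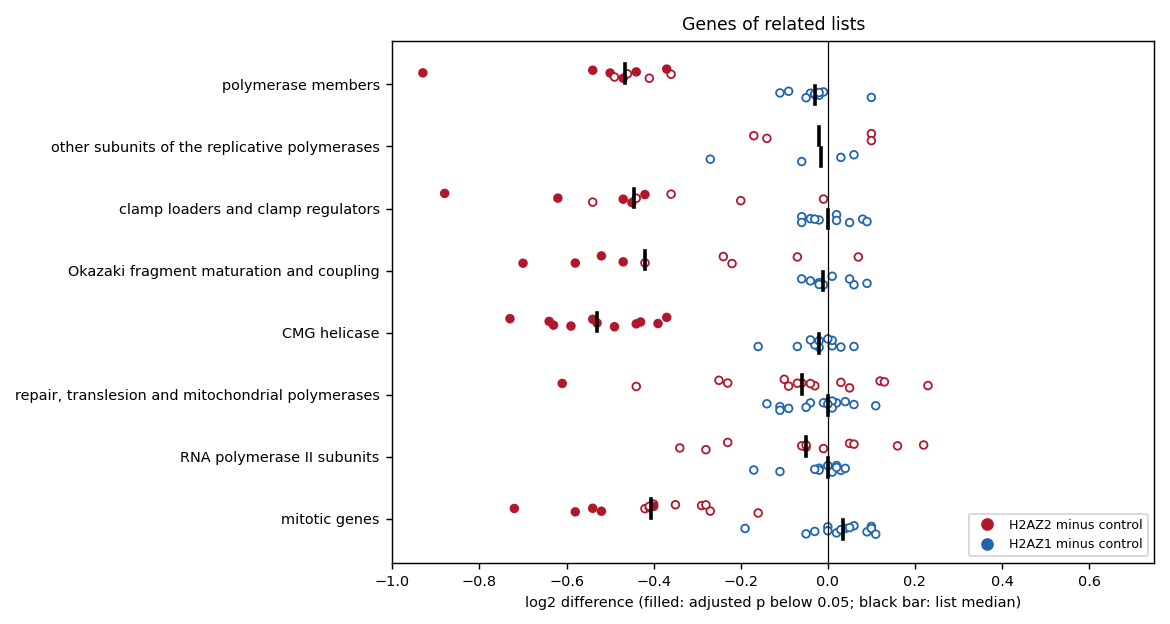
Log2 difference from control (horizontal axis) of every measured gene in 8 lists after H2AZ2 knockdown (upper points of each row) and over both H2AZ1 hairpins (lower points); filled points passed limma at an adjusted p of 0.05 and black bars are list medians. For H2AZ2 the bars lie at -0.46 for the 10 polymerase, clamp and nuclease genes and at -0.53 for the CMG helicase, and near 0 for RNA polymerase II; for H2AZ1 no point is filled.

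The promoter motif was also counted in these lists, with no test between them. The E2F-type motif lay in a window of 7 of 8 CMG helicase genes with a window, 2 of 8 clamp loader and regulator genes, 1 of 6 genes of Okazaki fragment maturation, 1 of the 4 further polymerase subunits, 2 of 14 repair and other polymerases, 1 of 8 RNA polymerase II genes and 1 of 12 mitotic genes. The CCAAT box lay in 11 of these 12 mitotic genes. Within the 10 genes, the 5 with the motif included POLE2 with the largest fall and PCNA with the smallest difference, and 2 of them, POLA2 and POLE2, fell in the pooled test. Of the genes with a window and no motif, PRIM1, POLD1 and FEN1 fell in that test and PRIM2 did not. Of all genes 2.44% were called lower there. The other genes with the motif, POLA1 (-0.46), POLE (-0.49) and PCNA (-0.36), had limma adjusted p of 0.0519, 0.0542 and 0.0535. FEN1, without the motif, passed at -0.37 (limma adjusted p = 0.0347). These counts by motif thus turn on the threshold and show no difference in response between the genes with and without it.

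The mean of the 10 genes, each centred over the 12 arrays, gave the pattern of the group. It was -0.35 and -0.33 with sh_37 and -0.21 and -0.40 with sh_38. It was -0.02 and 0.03 with sh_83 and 0.31 and 0.26 in the arrays labelled sh_84, and the controls had 0.23, 0.15, 0.08 and 0.25. The genes outside the group whose levels followed this mean most closely over the 12 arrays were ATAD2, a chromatin ATPase with a bromodomain (Pearson r 0.990, Spearman 0.972), GMPS, an enzyme of guanine nucleotide synthesis (0.989 and 0.993), NEDD4L, a ubiquitin ligase (0.987 and 0.944), KNTC1 of the kinetochore (0.986 and 0.986) and TFPI2, a protease inhibitor (0.985 and 0.986). These arrays share their hairpins, and the values are a description of likeness. After H2AZ2 knockdown ATAD2 changed by -0.75 and KNTC1 by -0.67 (limma adjusted p of 0.0113 and 0.0206). NEDD4L changed by -0.51 and TFPI2 by -0.89 (limma adjusted p of 0.0105 and 0.00625), while GMPS stood at -0.25 (limma adjusted p = 0.0633). These genes were chosen by likeness to a mean that was itself lower in the H2AZ2 arrays than in the controls. Their lower levels with H2AZ2 hairpins were thus largely set by the choice. The p-values, from the same arrays, are no independent evidence of a fall. The mean level of 175 small nucleolar RNA genes, a measure of array differences outside protein-coding genes, was 6.62 to 6.88 in the H2AZ2 arrays, against 6.68 to 7.12 in the controls. With it as a covariate, a setting added after the values were seen, 4 of the 10 genes were called lower after H2AZ2 knockdown.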

How the data were processed

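Expression was measured on 12 Affymetrix Human Gene 1.0 ST arrays, 2 for each of 6 hairpins. The deposited values are log2 expression per probe set, made by the authors with RMA, per the submitters' processing notes. The version is not given here. The platform table gave a single gene symbol for 19460 of 33297 probe sets, several symbols for 1754 and no entry for 12083. Only probe sets with a single symbol were used, 19429 of which matched RefSeq by Entrez ID. The brightest probe set of each gene was kept, giving 18417 genes. No further normalization was applied.

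Tests used limma 3.58.1 in R 4.3.3 on all 12 arrays. Targets were compared with the hairpin as a random block (consensus correlation 0.157), single hairpins in a fit with 6 groups of 2 arrays. Moderated p-values were adjusted by Benjamini-Hochberg over all genes, with a threshold of 0.05. Intervals are 95% intervals of the moderated fit. The number of arrays limits the precision, and signal over background is unknown. The 10 genes and all lists were chosen with earlier results of these data known. Genes named outside the 10 are the targeted genes, up to 2 members of each list with the largest change (called ones first), and the 5 genes most like the mean of the 10; any other name was picked with its values known. The list medians carry no test. A search for a peptide motif in the proteins was planned and not run, since no protein sequences were used here.

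Simulated data, built from the measured means and spreads with 200 of 18417 genes changed, were used to check the tests. For H2AZ2 against control the tests recovered 67% of changes of -0.5 and 95% of changes of -1, with 10.0% false calls. For sh_38 against control these shares were 56%, 95% and 16.1%. Both shares of false calls were above the 0.05 that the threshold aims at, so calls with an adjusted p just under it are uncertain. Each check was a single draw, with the same correlation within hairpins for all genes and no part shared by replicate number. Every simulated hairpin had an effect of its own, which the fit by hairpin does not model. Excess false calls were thus built into the sh_38 check. The shares hold for 200 changed genes and need not carry over to the measured data. No 2 arrays held identical values. Alternatives left out single arrays or hairpins, changed the block, the controls, the variance model or the unit of replication, dropped dim genes, averaged probe sets, and rescaled arrays. Figures were drawn with matplotlib 3.10.9.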

Additional observations from a re-analysis of the deposited data

Results flagged for a closer look

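PRIM1 in the H2AZ2 arrays had 1 array far from the others. Replicate 1 of sh_38 stood at 9.01, against 8.72 to 8.76 in the other 3, a gap of 0.843 of the range of the 4 arrays and past Dixon's 95% critical value. Of 30 groups of 4 arrays, 10 genes in 3 targets, 1 was past it, and chance alone gives about 1 in 20 such groups. Without that array the log2 difference of PRIM1 after H2AZ2 knockdown was -0.61 (SE 0.14, limma adjusted p = 0.0341), and with it -0.54 (limma adjusted p = 0.0455).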

How the results depend on the processing

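Replicate numbers were not used as pairs in the main tests, although same-numbered arrays of several hairpins shared part of their deviations. Over 15 pairs of hairpins these deviations correlated at -0.469 to 0.677 (median 0.145), 9 of them over 0.1. Those of sh_37, sh_38, sh_84 and scrambled correlated with each other at 0.375 to 0.677, and with luciferase at -0.469 to -0.131. What the replicate number stands for was not tested. With the number as a replicate block, 4 of the 10 genes were called lower after H2AZ2 knockdown (6 without it) and 4 for H2AZ2 against H2AZ1 (7 without it), and 113 genes were called for sh_84 and 343 for sh_83 against sh_84. The differences of the 10 genes kept their sign under every alternative run for H2AZ2, sh_37 and sh_38 against control and for H2AZ2 against H2AZ1. Their sizes varied: over these alternatives PCNA ran from -0.51 to -0.21 and POLE2 from -1.01 to -0.77 for H2AZ2 against control, and PRIM1 from -0.75 to -0.24 and POLE from -0.56 to -0.24 for H2AZ2 against H2AZ1.

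Leaving out single arrays or hairpins gave, for H2AZ2 against control, 0 to 8 of the 10 genes and 14 to 1681 genes in all (single arrays 66 to 847), with medians from -0.51 to -0.41. For H2AZ2 against H2AZ1 it gave 0 to 8, 93 to 1795 (single arrays 272 to 940) and -0.57 to -0.29, and for H2AZ1 against control 0 to 17 genes and medians from -0.17 to 0.09. For sh_37 it gave 3 to 9 of the 10 and 922 to 2510 genes, for sh_38 1 to 8, 148 to 1431 and medians from -0.58 to -0.39, for sh_83 6 to 111 genes and for sh_84 2 to 54. For sh_37 against sh_38 it gave 393 to 1238 genes and medians from -0.12 to 0.06, for the H2AZ2 hairpins against sh_83 0 to 3 of the 10 and 150 to 1071 genes, and for sh_83 against sh_84 34 to 237 genes and medians from -0.30 to -0.20. Without hairpin scrambled, H2AZ2 against control called 43 genes and 1 of the 10, without luciferase 14 and 0, without sh_37 3 of the 10, and without sh_38 1681 genes. For H2AZ2 against H2AZ1, 4 of the 10 were called without either control hairpin, 2 without sh_37 (446 genes), 0 without sh_84 (93 genes, median -0.29), 1795 genes without sh_38, and the median was -0.57 without sh_83. H2AZ1 against control called 2 genes without sh_83 (median 0.09) and 17 without sh_84 (median -0.17).

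With no hairpin block 957 genes and 10 of the 10 were called for H2AZ2 against control, 2 genes for H2AZ1 and 1211 for H2AZ2 against H2AZ1. With hairpin averages in the fit by hairpin these were 2087 and 10, 7 and 2364 genes. With the mean of a hairpin as 1 sample 0 genes and 0 of the 10 were called for H2AZ2 against either group. With a variance trend 281 genes were called for sh_83, 177 for sh_84 and 458 for sh_83 against sh_84. Made robust, the trend gave 284, 176 and 467, and 3 for H2AZ1. Under each of these, 1 of the 10 was called for sh_37 against sh_38 and for sh_83 against sh_84, and 5 for the H2AZ2 hairpins against sh_83. That last count was 4 without the dimmest genes, 1 after median centring and 4 after renewed quantile normalization, which also gave 1 for sh_37 against sh_38. The dim filter gave 114 genes for sh_84. With scrambled alone as control sh_38 called 468 genes and 4 of the 10, sh_83 50 genes and sh_84 1; with luciferase alone sh_84 called 116. Chosen after the values were seen, the small nucleolar RNA mean as a covariate gave 342 genes for H2AZ2, 3 of the 10 and a median of -0.36 for sh_38, 217 genes for sh_83, 337 for sh_84, 1833 for sh_37 against sh_38, 2012 genes and 6 of the 10 for the H2AZ2 hairpins against sh_83, and 539 genes and a median of -0.20 for sh_83 against sh_84. The cause of these shifts was not tested. Signal over background is unknown, and 2 arrays per hairpin limit each comparison between hairpins.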

Other observations

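Some genes of the related lists, picked with their values known, differed between the hairpins against H2AZ2. Of all genes 6.27% were called either way for sh_37 against sh_38. At that share such calls do not set the lists apart from the 10 genes, which gave none. POLR2A, the largest subunit of RNA polymerase II, stood at -0.09 with sh_37 (limma adjusted p = 0.661) and fell by 0.60 on the log2 scale with sh_38 (limma adjusted p = 0.00555), and the difference of sh_37 minus sh_38 was 0.51 (limma adjusted p = 0.0166). POLR2D, another subunit, had the opposite order: it fell by 0.53 with sh_37 (limma adjusted p = 0.0039), stood at -0.04 with sh_38 (limma adjusted p = 0.818), and differed by -0.48 between the hairpins (limma adjusted p = 0.0229). The translesion polymerase gene POLI stood at 0.19 and -0.33, with a difference of 0.52 (limma adjusted p = 0.0207). RNASEH2C, a subunit of the ribonuclease that removes ribonucleotides from DNA, stood at -0.16 and 0.30, with a difference of -0.46 (limma adjusted p = 0.0130).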
